A study of Mus musculus with 9 samples.

Results

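The 40 genes described here carry fatty acids into the heart cell and oxidise them: they take up the fatty acid, activate it, move it into the mitochondrion, run the beta-oxidation cycle and control its supply. They were picked by gene symbol from a list of the pathway, which was drawn up when earlier results of these data were known, and all 40 were among the 24964 genes of the deposited count table and among the 14347 that passed the filter on low counts. Expression was measured by bulk RNA sequencing of 9 libraries from hearts of male C57BL/6JR mice aged 8 weeks, with each library taken as a separate mouse. There were 3 sham-operated mice, and 6 whose left anterior descending coronary artery had been tied off, which causes a myocardial infarction (MI); the hearts of 3 of these were collected after 7 d (MI 7 d) and of the other 3 after 28 d (MI 28 d). The sham mice had the same surgery without the ligation. The time at which sham hearts were taken is not given in the sources used here, and neither is the part of the heart (infarct, border or remote muscle), so the groups differ in infarction and may differ in time since surgery.

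Adult heart muscle makes most of its ATP from long-chain fatty acids. Lipoprotein lipase releases them from lipoproteins, CD36 and fatty acid transport proteins carry them across the cell membrane, and heart-type fatty acid binding protein carries them in the cytosol. Acyl-CoA synthetases activate them, the carnitine shuttle moves the acyl group across the mitochondrial membranes, and each turn of beta-oxidation then removes an acetyl unit by dehydrogenation, hydration, a further oxidation and thiolysis, with the electrons passing through the electron transfer flavoprotein to the respiratory chain. Malonyl-CoA inhibits entry at carnitine palmitoyltransferase 1, and PPAR alpha, oestrogen-related receptors and PGC-1 alpha are known activators of many genes of the pathway.

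Levels are CPM, the read counts of a gene scaled to a common library total after TMM scaling, and library values are given in the order of replicates 1 to 3. Fold changes are on the log2 scale with their standard error (SE), from edgeR (quasi-likelihood test, p-values adjusted by Benjamini and Hochberg across the 14347 genes). The words rose, fell and passed refer to an adjusted p under 0.05. Library totals lay between 12351525 and 19238101 counts. The sham libraries differed little from each other (their biological coefficient of variation was 2.77%, against 17% among 7 d libraries and 24.1% among 28 d libraries). Chi-square over its degrees of freedom, which rises with spread beyond counting noise, was 1.67 to 1.8 between sham libraries. Between libraries of the same infarct group it was 18.8 to 71.2. The titles number the libraries only as replicates, and whether the sham libraries came from separate mice was not tested. Fits with the sham libraries summed to 1 are therefore also given. The tissue was heart by its defining genes, since all 15 cardiomyocyte markers listed were detected in every library. Their summed level was 129031 to 131954 CPM in sham hearts, 23922 to 29849 CPM at 7 d and 52252 to 85154 CPM at 28 d. At 7 d all 15 of these markers fell, with a median log2 fold change of -2.26, and at 28 d 11 fell, with a median of -0.76. Over the same hearts, 10 of 10 fibroblast and 10 of 10 macrophage markers rose at 7 d, and 9 of 10 of each rose at 28 d. Of 12 endothelial markers 8 fell at 7 d and 10 at 28 d, and their summed level was 2856 to 2961 CPM in sham, 1361 to 1550 CPM at 7 d and 990.0 to 1827 CPM at 28 d. In bulk tissue, fewer cardiomyocytes and less RNA of a gene per cardiomyocyte cannot be told apart, which applies to each result that follows. Both infarct groups are compared with the same 3 sham hearts.

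At 7 d, 35 of the 40 genes fell against sham, 2 rose and 3 did not pass. Across all tested genes 35.4% fell and 39.0% rose. The median log2 fold change of the 40 was -2.92, against 0.064 over all tested genes. Of the 35 that fell, 19 were at least 8-fold lower. The mean level of a gene at 7 d was between 4.40% and 255% of its sham mean, with a median of 13.2%. At 28 d, 32 fell against sham, 2 rose and 6 did not pass, where 25.6% of all tested genes fell and 29.5% rose. The median log2 fold change was then -1.50 (0.054 over all tested genes), 1 gene was still at least 8-fold lower, and the median level was 35.3% of sham.

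Compared directly, 32 of the 40 were higher at 28 d than at 7 d and 3 were lower, against 29.1% and 26.1% of all tested genes. The median log2 difference was 1.28 (0.033 over all tested genes). A total of 30 genes shared one course, lower than sham at 7 d, lower than sham at 28 d and higher at 28 d than at 7 d. The other 10 were Slc27a1, Slc27a4, Acsl3, Acsl5, Cpt1a, Cpt1b, Acad10, Acaa1a, Acot1 and Pnpla2, and each is given in its place. In 33 of the 35 genes that fell at 7 d the size of the log2 fold change was smaller at 28 d, the exceptions being Acaa1a and Acot1. These 35 were picked by their fall at 7 d, which by itself favours a smaller value at 28 d. Shares over all tested genes are not at hand for these 30 and 33 genes, nor for the counts of genes at least 8-fold lower.

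**Figure D1:**
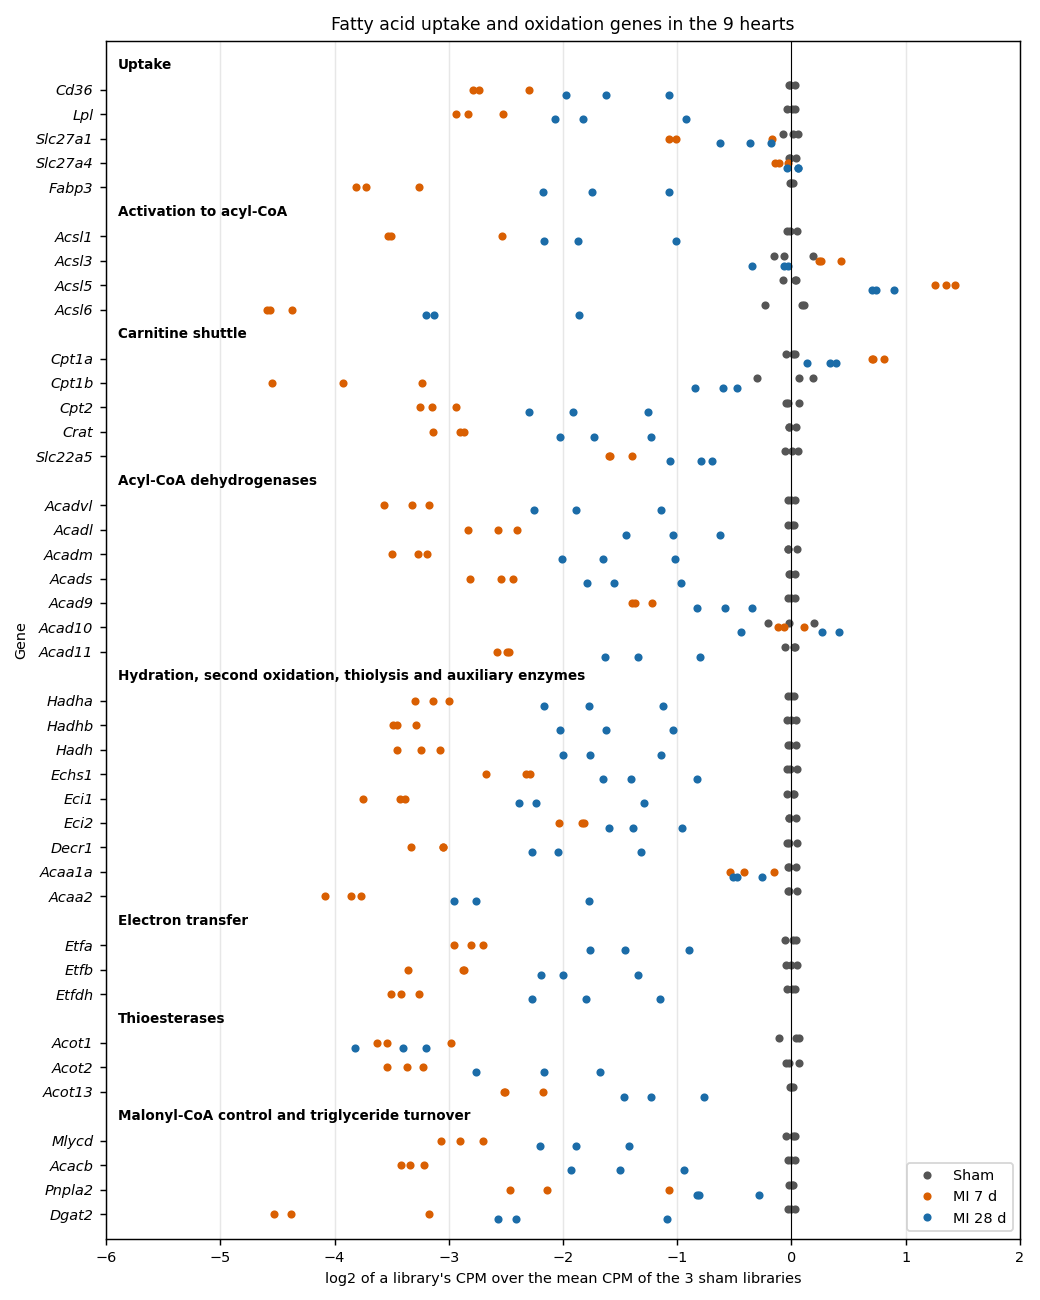
The plot gives each of the 40 genes a row, grouped by role, and each library a point at the log2 of its CPM over the mean of the 3 sham libraries (grey sham, orange MI 7 d, blue MI 28 d). Most rows show the 7 d points lowest and the 28 d points between them and sham, while Acsl5 and Cpt1a lie to the right of sham and Acot1 has its 28 d points among its 7 d points.

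Of the 5 uptake genes, 4 fell at 7 d and 3 at 28 d. Fabp3, which encodes the heart-type fatty acid binding protein (chromosome 4, 130308595 to 130315463, plus strand of GRCm38), had 4298, 4234 and 4223 CPM in the sham libraries, 443, 303 and 321 at 7 d and 2021, 1265 and 944 at 28 d. Every 7 d library was below every 28 d library, and every 28 d library was below sham. Fabp3 was 11.95-fold lower at 7 d (log2 fold change -3.58, SE 0.28, adjusted p = 2.11e-06) and 3.02-fold lower at 28 d (log2 fold change -1.59, SE 0.26, adjusted p = 7.69e-04). Per kilobase of transcript it had the highest sham level of the 40 genes, at 5166 ± 49.1 CPM per kb (mean ± SD, n = 3). Of the exon bases of Fabp3, 19.6% lie opposite other genes (9.84% opposite Zcchc17, and 9.72% opposite Gm10570, which is not in the count table). Without strand in the counting, reads of Fabp3 and Zcchc17 there cannot be told apart. Lpl, the lipoprotein lipase gene (chromosome 8, 68880491 to 68907448, plus strand), had 7694, 7940.0 and 8102 CPM in the sham libraries, 1110.2, 1032 and 1375 at 7 d and 4166, 2236 and 1885 at 28 d. The groups did not overlap, but replicate 1 at 28 d stood well above replicates 2 and 3. Its log2 fold change was -2.75 at 7 d (SE 0.28, adjusted p = 1.18e-05) and -1.52 at 28 d (SE 0.27, adjusted p = 0.00120). Cd36, the membrane fatty acid translocase (chromosome 5, 17781690 to 17888801, minus strand), had 2489, 2481 and 2562 CPM in the sham libraries, 364, 377 and 511 at 7 d and 1191, 815 and 639 at 28 d, which put its 28 d libraries between the other groups. It was 6.01-fold lower at 7 d (adjusted p = 4.46e-06) and 2.85-fold lower at 28 d (adjusted p = 4.41e-04).

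Cd36 is also made by capillary endothelium, whose summed markers were lower in both infarct groups, and their part in its fall was not tested. The 2 fatty acid transport proteins had smaller fold changes than these 3 genes. Slc27a4, encoding FATP4, had 43.1, 44.7 and 42.9 CPM in the sham libraries, 40.4, 39.5 and 42.8 at 7 d and 45.5, 42.3 and 45.4 at 28 d, with overlapping groups. Its log2 fold change was -0.092 at 7 d (SE 0.068, adjusted p = 0.243) and 0.026 at 28 d (SE 0.068, adjusted p = 0.761). Library size alone as the scaling shifts the median of all genes to 0.398 at 7 d and 0.303 at 28 d. On that scale Slc27a4 was called higher at 7 d (0.24, adjusted p = 0.0186) and at 28 d (0.27, adjusted p = 0.0144), though below those medians. Slc27a1, encoding FATP1, had 142, 151 and 156 CPM in the sham libraries, 71.1, 74.3 and 133 at 7 d and 132, 96.7 and 117 at 28 d. Replicate 3 at 7 d was close to the sham range while replicates 1 and 2 were far below it, and all 28 d libraries lay below sham and above those 2. It fell at 7 d (log2 fold change -0.69, SE 0.22, adjusted p = 0.0173), a call that was lost without sham replicate 3 (adjusted p = 0.0518), without 7 d replicate 1 (0.0641) or without 7 d replicate 2 (0.0669), and also with library size alone as the scaling (-0.35, adjusted p = 0.186) or with the sham libraries summed to 1 (adjusted p = 0.117). At 28 d it did not pass (log2 fold change -0.38, adjusted p = 0.173), but without 7 d replicate 3, whose spread enters the shared estimate, the same fold change passed (-0.38, adjusted p = 0.0209). The difference of 28 d from 7 d was 0.31 (adjusted p = 0.256) and became 0.66 without that library (adjusted p = 0.00303).

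The 4 acyl-CoA synthetases moved in different directions. Acsl1, the main synthetase of heart muscle, had 1527, 1500.1 and 1587 CPM in the sham libraries, 133, 136 and 265 at 7 d and 764, 421 and 343 at 28 d. The 28 d libraries lay between the other groups, and the highest library of each infarct group stood apart from the other two. Acsl1 was 8.64-fold lower at 7 d (log2 fold change -3.11, SE 0.35, adjusted p = 2.60e-05) and 3.02-fold lower at 28 d (log2 fold change -1.59, SE 0.33, adjusted p = 0.00305, lost with sham summed to 1 library, adjusted p = 0.0507). Acsl5, a synthetase found in many tissues, went the other way with 36.03, 39.2 and 38.8 CPM in the sham libraries, 102, 90.6 and 97.3 at 7 d and 62.1, 63.5 and 70.7 at 28 d. All 7 d libraries were above all 28 d libraries, and these were above sham. It was 2.55-fold higher than sham at 7 d (log2 fold change 1.35, SE 0.08, adjusted p = 5.09e-07) and 1.72-fold higher at 28 d (log2 fold change 0.78, SE 0.08, adjusted p = 8.03e-05), and it was lower at 28 d than at 7 d (log2 fold change -0.56, adjusted p = 2.48e-04).

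Acsl6 had the largest fall of the 40 genes at 7 d. It had 25.8, 20.4 and 25.4 CPM in the sham libraries, 1.01, 0.990 and 1.15 at 7 d and 6.57, 2.73 and 2.61 at 28 d, so the 7 d libraries were lowest and replicate 1 at 28 d stood above the other two. The fall was 22.6-fold at 7 d (log2 fold change -4.50, SE 0.35, adjusted p = 2.30e-06) and 6.05-fold at 28 d (adjusted p = 1.89e-04). Acsl3, with 7.85, 8.37 and 9.97 CPM in the sham libraries, 11.8, 10.4 and 10.3 at 7 d and 8.56, 6.89 and 8.34 at 28 d, did not pass against sham at 7 d (log2 fold change 0.31, SE 0.14, adjusted p = 0.0686) or at 28 d (log2 fold change -0.14, adjusted p = 0.434). All its 7 d libraries were above all 28 d libraries, and it was lower at 28 d than at 7 d (log2 fold change -0.45, adjusted p = 0.0206). That call was lost without 7 d replicate 1 (adjusted p = 0.0684) or without 28 d replicate 2 (0.0731), and a rise at 7 d was called without sham replicate 3 (log2 fold change 0.41, adjusted p = 0.0400), with library size alone as the scaling (0.65, adjusted p = 0.00221) and in a fit of only the libraries compared (0.32, adjusted p = 0.0404).

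Per kilobase of transcript, Acsl1 made up 95.1% ± 0.133 (SD, n = 3) of the summed level of the 4 synthetases in sham hearts, 62.2% ± 9.01 at 7 d and 86.2% ± 4.70 at 28 d. The share of Acsl5 was 2.16% ± 0.115 in sham hearts, 33.2% ± 7.80 at 7 d and 11.4% ± 4.36 at 28 d. Its libraries ranged from 2.06% to 2.28%, from 24.4% to 39.1% and from 6.80% to 15.5% in the same order, with no overlap between groups. Acsl5 thus remained below Acsl1 in each library on this scale. Acsl4, a further synthetase outside the 40 genes, is not part of these shares. Its mean was 20.5 CPM in sham, 35.9 at 7 d and 40.3 at 28 d. It rose at 7 d (log2 fold change 0.81, SE 0.27, adjusted p = 0.0190) and at 28 d (0.98, SE 0.27, adjusted p = 0.0116). Summed macrophage markers, whose cells also express Acsl5, moved the same way (612 to 684 CPM in sham, 4952 to 6063 CPM at 7 d and 1068 to 1637 CPM at 28 d). So did summed fibroblast markers (2376 to 2436, 36538 to 47555 and 6901 to 12919 CPM in the same order). Summed lymphocyte markers had this course too (4.54 to 5.52, 21.4 to 27.2 and 13.7 to 18.6 CPM). The part of any of these cells in the rise of Acsl5 was not tested.

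**Figure D2:**
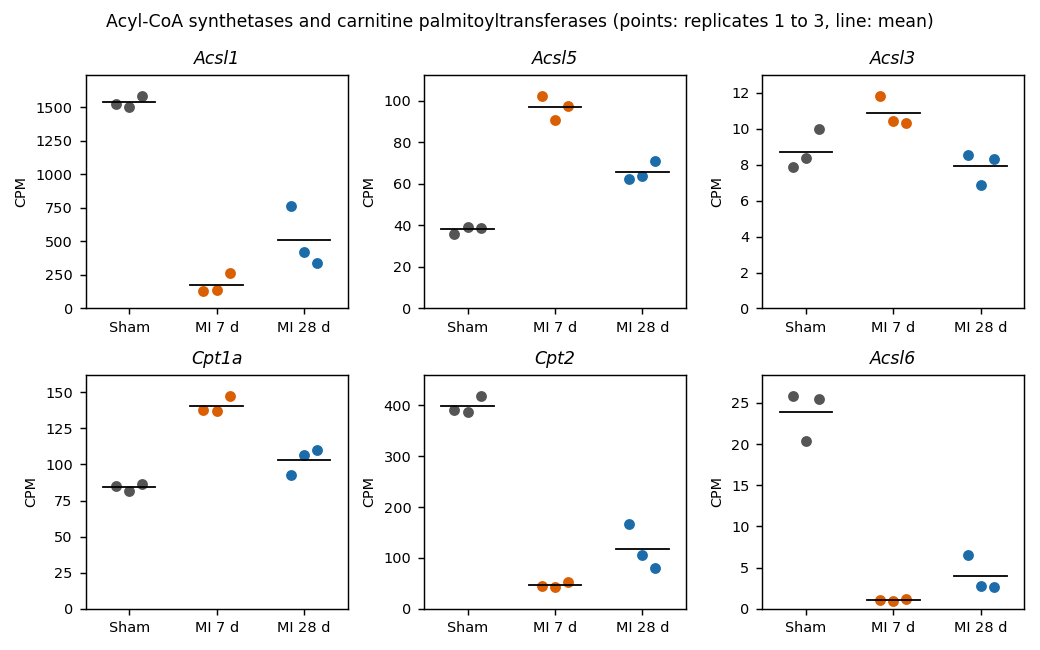
Each panel shows 1 gene, with CPM from 0 on the vertical axis, the 3 groups on the horizontal axis, a point per library and a line at the group mean. Acsl1, Acsl6 and Cpt2 are lowest at 7 d, whereas Acsl5 and Cpt1a are highest at 7 d and stay above sham at 28 d.

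In the carnitine shuttle, 4 of the 5 genes fell and 1 rose at 7 d. Cpt2, which rebuilds acyl-CoA on the matrix side of the inner membrane, had 391, 387 and 418 CPM in the sham libraries, 44.9, 41.9 and 51.97 at 7 d and 167, 106 and 81.1 at 28 d, with no overlap between groups. It was 8.61-fold lower at 7 d (log2 fold change -3.11, SE 0.24, adjusted p = 1.84e-06) and 3.38-fold lower at 28 d (adjusted p = 2.36e-04). Crat, carnitine acetyltransferase, was 7.80-fold and 3.09-fold lower at the 2 times (adjusted p = 7.70e-07 and 1.25e-04), from 1040.2 ± 26.3 CPM in sham to 133 ± 12.99 at 7 d and 337 ± 96.4 at 28 d (mean ± SD, n = 3). The smallest fall in this role was that of Slc22a5, the plasma membrane carnitine transporter OCTN2, with 37.3, 38.9 and 40.3 CPM in the sham libraries, 12.8, 12.9 and 14.8 at 7 d and 23.96, 18.6 and 22.4 at 28 d. Its libraries kept the same order of groups without overlap (log2 fold change -1.52 at 7 d, SE 0.11, adjusted p = 1.48e-06, and -0.84 at 28 d, adjusted p = 2.58e-04).

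Carnitine palmitoyltransferase 1, the malonyl-CoA-sensitive entry step, is represented by 2 genes. Cpt1a, the form known from liver, had 84.8, 81.3 and 86.1 CPM in the sham libraries, 138, 137 and 147 at 7 d and 92.4, 107 and 110.0 at 28 d. It was highest at 7 d, and its 28 d libraries also lay above all sham libraries. The rise was 1.67-fold at 7 d (log2 fold change 0.74, SE 0.082, adjusted p = 2.10e-05) and 1.22-fold at 28 d (log2 fold change 0.29, SE 0.082, adjusted p = 0.0131), and the 28 d call was lost without sham replicate 2 (0.26, adjusted p = 0.0629) or with sham summed to 1 library (0.26, adjusted p = 0.217). Cpt1b, the muscle form, is known as the main form of adult heart, yet it had only 21, 28 and 28 counts in the sham libraries, 5, 3 and 2 at 7 d and 19, 24 and 28 at 28 d. Of the exon bases of Cpt1b (chromosome 15, 89416405 to 89425863, minus strand of GRCm38), 81.4% are shared on the same strand with the readthrough gene Gm44502 in GENCODE M21, and Gm44502 was listed at 0 counts in all 9 libraries. A read in a shared exon cannot be given to either gene by its position, so the counts of Cpt1b are uncertain and cannot be set beside those of Cpt1a. On the counts as deposited it fell at 7 d (log2 fold change -3.74, SE 0.36, adjusted p = 7.76e-06), did not pass at 28 d (log2 fold change -0.63, adjusted p = 0.0851), and was higher at 28 d than at 7 d (log2 fold change 3.11, adjusted p = 8.98e-05).

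Of the 7 acyl-CoA dehydrogenases, which carry out the first step of each turn, 6 fell at both times. Acadvl, for very long chains, had 1522, 1489.7 and 1554 CPM in the sham libraries, 168, 129 and 152 at 7 d and 691, 412 and 319 at 28 d, and was 10.2-fold lower at 7 d (log2 fold change -3.35, SE 0.26, adjusted p = 2.21e-06) and 3.21-fold lower at 28 d (adjusted p = 4.57e-04). Its 3 groups did not overlap. Of its exon bases 42.9% lie opposite Dvl2, and without strand in the counting reads of the 2 genes cannot be told apart. Acadm, for medium chains (chromosome 3, 153922357 to 153944632, minus strand), had 1623, 1627 and 1716 CPM in the sham libraries, 182, 147 and 172 at 7 d and 816, 527 and 411 at 28 d, with the same order of groups. It was 9.93-fold lower at 7 d (log2 fold change -3.31, SE 0.23, adjusted p = 1.21e-06) and 2.83-fold lower at 28 d (adjusted p = 4.38e-04). Acadl, for long chains, began at a similar sham level per kilobase (755 ± 14.9 CPM per kb, against 809 ± 25.7 for Acadm and 702 ± 14.9 for Acadvl). Its libraries had 1454, 1416 and 1472 CPM in sham, 274, 204 and 244 at 7 d and 941, 705 and 531 at 28 d. With a 6.01-fold fall at 7 d and a 1.99-fold fall at 28 d (adjusted p = 2.11e-06 and 0.00195), Acadl was the most abundant of the 7 per kilobase at both times after infarction. Its share of their summed level per kilobase was 29.8% ± 0.260 in sham hearts, 38.2% ± 0.982 at 7 d and 38.3% ± 2.00 at 28 d (SD, n = 3).

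Acads, for short chains, fell 6.01-fold at 7 d and 2.63-fold at 28 d (adjusted p = 1.96e-06 and 3.30e-04). Acad11, which acts on long and very long chains, fell 5.70-fold and 2.32-fold (adjusted p = 1.53e-06 and 4.43e-04). Acad9, best known as an assembly factor of respiratory complex I, fell less, from 79.4 ± 1.84 CPM in sham to 31.7 ± 2.06 at 7 d and 53.5 ± 8.75 at 28 d (log2 fold change -1.33 and -0.57, adjusted p = 3.71e-06 and 0.00209). Acad10 had 4.54, 5.15 and 6.0 CPM in the sham libraries, 4.81, 5.0 and 5.63 at 7 d and 6.97, 3.85 and 6.32 at 28 d, with overlapping groups and the lowest level of the 7 per kilobase. It did not pass at 7 d (log2 fold change -0.023, SE 0.23, adjusted p = 0.932) or at 28 d (0.13, SE 0.23, adjusted p = 0.662), and its sign turned when a single library was left out.

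All 9 genes of the later steps of the cycle and of its auxiliary enzymes fell at both times. Hadha and Hadhb encode the 2 subunits of the mitochondrial trifunctional protein, which carries out the last 3 steps on long chains. Hadha had 2483, 2441 and 2531 CPM in the sham libraries, 312, 253 and 283 at 7 d and 1143, 728 and 554 at 28 d. Hadhb had 2146, 2098 and 2218 CPM in the sham libraries, 221, 192 and 196 at 7 d and 1053, 700.1 and 529 at 28 d. Neither gene's groups overlapped. Hadha was 8.80-fold lower at 7 d and 3.07-fold lower at 28 d (log2 fold change -3.14, SE 0.24, adjusted p = 1.95e-06, and log2 fold change -1.62, adjusted p = 3.70e-04). Hadhb was 10.6-fold and 2.83-fold lower (log2 fold change -3.41, SE 0.23, adjusted p = 9.56e-07, and log2 fold change -1.50, adjusted p = 3.87e-04). The 2 genes lie head to head in GRCm38, Hadha at chromosome 5, 30118304 to 30155162, minus strand and Hadhb at chromosome 5, 30155248 to 30184593, plus strand. The stretch between their annotated starts is 85 bases long, with 69.4% G and C and 9 CpG, and is printed because both genes read away from it; it is RefSeq sequence of GRCm38.p6, plus strand, in lower case as no motif is marked.
Hadha to Hadhb, chr5:30155163-30155247: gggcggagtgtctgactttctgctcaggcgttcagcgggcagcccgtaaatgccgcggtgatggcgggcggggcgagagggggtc

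Acaa2, the thiolase that releases acetyl-CoA in the mitochondrion, fell most in this role. It had 1167, 1163 and 1222 CPM in the sham libraries, 86.98, 69.9 and 81.7 at 7 d and 347, 175 and 153 at 28 d. The 3 groups did not overlap, and replicate 1 at 28 d stood well above replicates 2 and 3. The fall was 14.9-fold at 7 d (log2 fold change -3.90, SE 0.29, adjusted p = 1.77e-06) and 5.27-fold at 28 d (log2 fold change -2.40, SE 0.27, adjusted p = 1.44e-04). Acaa1a, the thiolase of peroxisomes, moved least, with 66.3, 66.9 and 69.7 CPM in the sham libraries, 60.8, 46.7 and 50.8 at 7 d and 56.7, 48.7 and 47.3 at 28 d. All infarct libraries were below sham, but the 2 infarct groups overlapped. Its fall was small at 7 d (log2 fold change -0.36, SE 0.11, adjusted p = 0.0124) and at 28 d (-0.41, SE 0.11, adjusted p = 0.00985). Scaled by library size alone neither passed (-0.025, adjusted p = 0.815, and -0.17, adjusted p = 0.149), against all-gene medians of 0.398 and 0.303 on that scale, and neither passed with sham summed to 1 library (adjusted p = 0.0944 and 0.0995).

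The remaining enzymes of this role lay between these. Hadh, which oxidises short and medium 3-hydroxyacyl-CoA, fell 9.50-fold at 7 d and 3.01-fold at 28 d (adjusted p = 8.82e-07 and 2.30e-04). Echs1, the short-chain enoyl-CoA hydratase, fell 5.34-fold and 2.38-fold (adjusted p = 3.23e-06 and 6.16e-04). The enzymes that prepare unsaturated fatty acids for the cycle fell as well. Eci1, the mitochondrial enoyl-CoA isomerase, went from 311 ± 7.89 CPM in sham to 27.3 ± 3.68 at 7 d and 84.1 ± 37.1 at 28 d (mean ± SD, n = 3), 11.4-fold and 3.70-fold lower (adjusted p = 2.06e-06 and 3.05e-04). Decr1, 2,4-dienoyl-CoA reductase, was 8.80-fold and 3.52-fold lower (adjusted p = 1.48e-06 and 1.76e-04). Eci2, a second isomerase, also found in peroxisomes, was 3.71-fold and 2.44-fold lower (adjusted p = 2.25e-06 and 1.37e-04).

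The 3 electron transfer genes fell by similar amounts. Etfdh, the membrane dehydrogenase that passes electrons to ubiquinone, had 1049, 1016 and 1066 CPM in the sham libraries, 109, 91.7 and 97.9 at 7 d and 469.8, 299 and 217 at 28 d. It was 10.5-fold lower at 7 d (log2 fold change -3.39, SE 0.25, adjusted p = 1.56e-06) and 3.18-fold lower at 28 d (adjusted p = 3.66e-04), with no overlap between groups. Etfa, the alpha subunit of the flavoprotein, fell least of the 3 at 7 d, with 780.0, 741 and 792 CPM in the sham libraries, 119, 99.6 and 110.4 at 7 d and 413, 281 and 227 at 28 d, again in 3 separate groups (7.03-fold lower, adjusted p = 1.29e-06, at 7 d, and 2.51-fold lower, adjusted p = 4.13e-04, at 28 d). Etfb, the beta subunit, was 8.09-fold and 3.48-fold lower (adjusted p = 1.76e-06 and 1.84e-04). Of its exon bases 58.2% are shared with other genes on the same strand in GENCODE M21. Most of these (53%) are shared with Gm45233, which is not in the count table, and 5.24% with Mir7051, which is. The annotation used for counting is not given, so how far its level is uncertain is not known.

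Thioesterases split acyl-CoA into free fatty acid and CoA, and all 3 fell at both times. Acot1, the cytosolic form, and Acot2, its mitochondrial neighbour, are close copies that lie 15616 bases apart on chromosome 12, and reads may be split between them. Acot2 had 101, 107 and 98.9 CPM in the sham libraries, 10.9, 8.81 and 9.91 at 7 d and 31.99, 22.8 and 15.1 at 28 d, and its groups kept the common order, lowest at 7 d. Acot1 had 18.7, 21.1 and 20.7 CPM in the sham libraries, 2.55, 1.63 and 1.73 at 7 d and 2.19, 1.43 and 1.91 at 28 d, and its 28 d libraries overlapped its 7 d libraries, all far below sham. At 7 d the log2 fold change was -3.35 for Acot1 (SE 0.21, adjusted p = 6.50e-07) and -3.37 for Acot2 (SE 0.23, adjusted p = 1.12e-06). At 28 d Acot1 was at -3.45 (SE 0.21, adjusted p = 6.80e-06), the largest fall of the 40 genes at that time, and Acot2 at -2.14 (SE 0.22, adjusted p = 8.15e-05). From 7 d to 28 d Acot2 was higher (log2 fold change 1.23, adjusted p = 0.00130), whereas the difference for Acot1 was -0.10 (SE 0.22, adjusted p = 0.726) and changed sign when 7 d replicate 1 or 28 d replicate 2 was left out (0.13 and 0.055). The counts of Acot1 relative to Acot2 were 0.185, 0.198 and 0.209 in sham libraries, 0.233, 0.185 and 0.175 at 7 d and 0.0685, 0.0627 and 0.127 at 28 d. The 28 d ratios were below all others (exact permutation test against sham, two-sided p = 0.1, the smallest that 3 against 3 libraries allow; 0.107 adjusted over 15 such tests of 5 gene pairs). Acot13, a mitochondrial thioesterase of another fold, was 5.24-fold and 2.18-fold lower (adjusted p = 1.50e-06 and 4.97e-04), from 309 ± 3.26 CPM in sham to 58.97 ± 8.31 at 7 d and 141 ± 35.9 at 28 d.

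The last 4 genes set the supply of malonyl-CoA and the turnover of stored triglyceride. Acacb, the mitochondria-bound acetyl-CoA carboxylase that makes malonyl-CoA, had 690.4, 675 and 707 CPM in the sham libraries, 64.5, 68.1 and 74.3 at 7 d and 359, 245 and 181 at 28 d, and Mlycd, malonyl-CoA decarboxylase, which removes it, had 167, 177 and 174 CPM in the sham libraries, 26.7, 20.6 and 23.1 at 7 d and 64.4, 46.9 and 37.7 at 28 d. In both genes the groups did not overlap. Acacb was 10.02-fold lower at 7 d (log2 fold change -3.32, SE 0.22, adjusted p = 9.11e-07) and 2.64-fold lower at 28 d (adjusted p = 4.67e-04), and Mlycd 7.37-fold (log2 fold change -2.88, SE 0.18, adjusted p = 6.95e-07) and 3.48-fold (adjusted p = 6.12e-05), so the maker and the remover of the inhibitor fell together. Dgat2, which completes triglyceride synthesis, had 596, 572 and 583 CPM in the sham libraries, 28.05, 25.3 and 64.9 at 7 d and 275, 98.3 and 109.7 at 28 d. Replicate 3 at 7 d and replicate 1 at 28 d stood above the others of their groups. It was 14.8-fold lower at 7 d (log2 fold change -3.89, SE 0.48, adjusted p = 4.79e-05) and 3.63-fold lower at 28 d (log2 fold change -1.86, SE 0.44, adjusted p = 0.00589), and without 28 d replicate 1 the 28 d value was -2.498 (adjusted p = 0.000561). With sham summed to 1 library the 28 d fall did not pass (-1.90, adjusted p = 0.0684). Pnpla2, the triglyceride lipase ATGL, had 558, 555 and 545 CPM in the sham libraries, 126, 99.9 and 263 at 7 d and 453, 313 and 316 at 28 d. All infarct libraries were below sham, and replicate 3 at 7 d was close to the lower 28 d libraries. It fell at 7 d (log2 fold change -1.76, SE 0.32, adjusted p = 6.40e-04) and did not pass at 28 d (log2 fold change -0.62, SE 0.31, adjusted p = 0.118), but passed there without 7 d replicate 3 (-0.62, adjusted p = 0.0107) and in a fit of only the libraries compared (-0.61, adjusted p = 0.0139).

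Some of the genes whose infarct libraries were uneven are also known from adipocytes. Adipoq, an adipocyte hormone, had 1.22, 1.75 and 0.423 CPM in the sham libraries, 0.529, 3.12 and 217 at 7 d and 130.4, 0.496 and 122 at 28 d, so it was high in 7 d replicate 3 and in 28 d replicates 1 and 3 and near the sham level in the other infarct libraries. The summed level of the 10 adipocyte markers was 47.2 to 54.3 CPM in sham, 20.3 to 1594 CPM at 7 d and 34.4 to 1168 CPM at 28 d, and of these markers 5 rose and 1 fell at each time among the 9 tested. In these 3 libraries adipocyte RNA and heart RNA cannot be told apart for a gene that both express. These include 2 of the 3 libraries at 28 d, so without them the 28 d group is replicate 2 alone, assumed to vary like the other groups. Without them, 35 of the 40 genes fell and 2 rose at 7 d, and 34 fell and 2 rose at 28 d, where Slc27a1 (log2 fold change -0.64, adjusted p = 0.000380) and Pnpla2 (-0.84, adjusted p = 0.000320) were added to those that fell on the value of that single library. Dgat2 was then at -2.58 at 28 d. Among the 35 genes that fell at 7 d, 28 d replicate 1 was the highest of its group in 34 and 28 d replicate 3 the lowest in 29. Summed cardiomyocyte markers had that order as well, with 85154, 67616 and 52252 CPM in 28 d replicates 1 to 3, and their part in it was not tested. Replicate 3 at 28 d stood apart in other markers too. Its summed endothelial markers were at 990.0 CPM (1697 and 1827 in replicates 1 and 2), its fibroblast markers at 12919 CPM (6901 and 9099) and its 4 mesothelial markers at 505 CPM (84.2 and 98.6), and their part was not tested either.

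**Figure D3:**
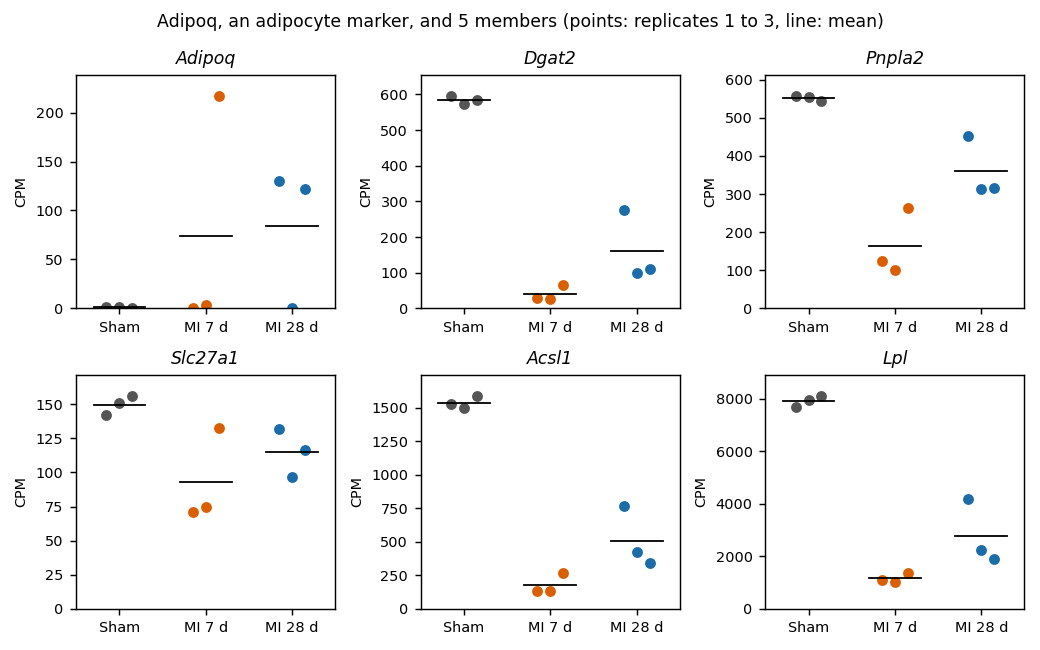
Each panel shows 1 gene, with CPM from 0 on the vertical axis, the 3 groups on the horizontal axis, a point per library (replicates 1 to 3 from left to right) and a line at the group mean. Adipoq is high in 7 d replicate 3 and in 28 d replicates 1 and 3, and Dgat2, Pnpla2, Slc27a1 and Acsl1 have their highest 7 d value in replicate 3.

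To set the 40 genes beside the muscle content of each library, the counts of each gene were divided by the summed counts of the 15 cardiomyocyte markers of the same library. No test was made of this ratio, as the markers changed with infarction themselves. At 7 d the ratio was below every sham library in every 7 d library for 27 of the 40 genes, and above for 10. Of all tested genes 3.05% were below and 92.8% above in this way. At 28 d it was below for 28 and above for 9, against 4.65% and 81.5% of all tested genes. The median difference of the 40 in log2 ratio was -0.59 at 7 d and -0.59 at 28 d, whereas over all tested genes it was 2.40 and 1.01. The 15 markers fell unequally, with log2 fold changes from -3.62 to -1.32 at 7 d and from -1.57 to 0.13 at 28 d. These ranges include the median log2 fold changes of the 40 genes (-2.92 and -1.50). The sign of the median difference therefore depends on which markers are used. The furthest below at 7 d were Acsl6 (-2.13 at 7 d and -1.75 at 28 d), Dgat2 (-1.68 and -1.06) and Acaa2 (-1.56 and -1.53). At 28 d Acot1 was the furthest below (-1.02 at 7 d and -2.49 at 28 d), and Acot2 (-1.03 and -1.24) lay below Dgat2. Acadl (-0.26 and -0.071) and Acot13 (-0.055 and -0.19) fell nearly as the summed markers did. Acsl5 (3.69 and 1.75), Cpt1a (3.08 and 1.25) and Acsl3 (2.66 and 0.82) were the furthest above at 7 d. At 28 d Acsl5 and Cpt1a were again, followed by Acad10 (1.05) and Slc27a4 (0.99).

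**Figure D4:**
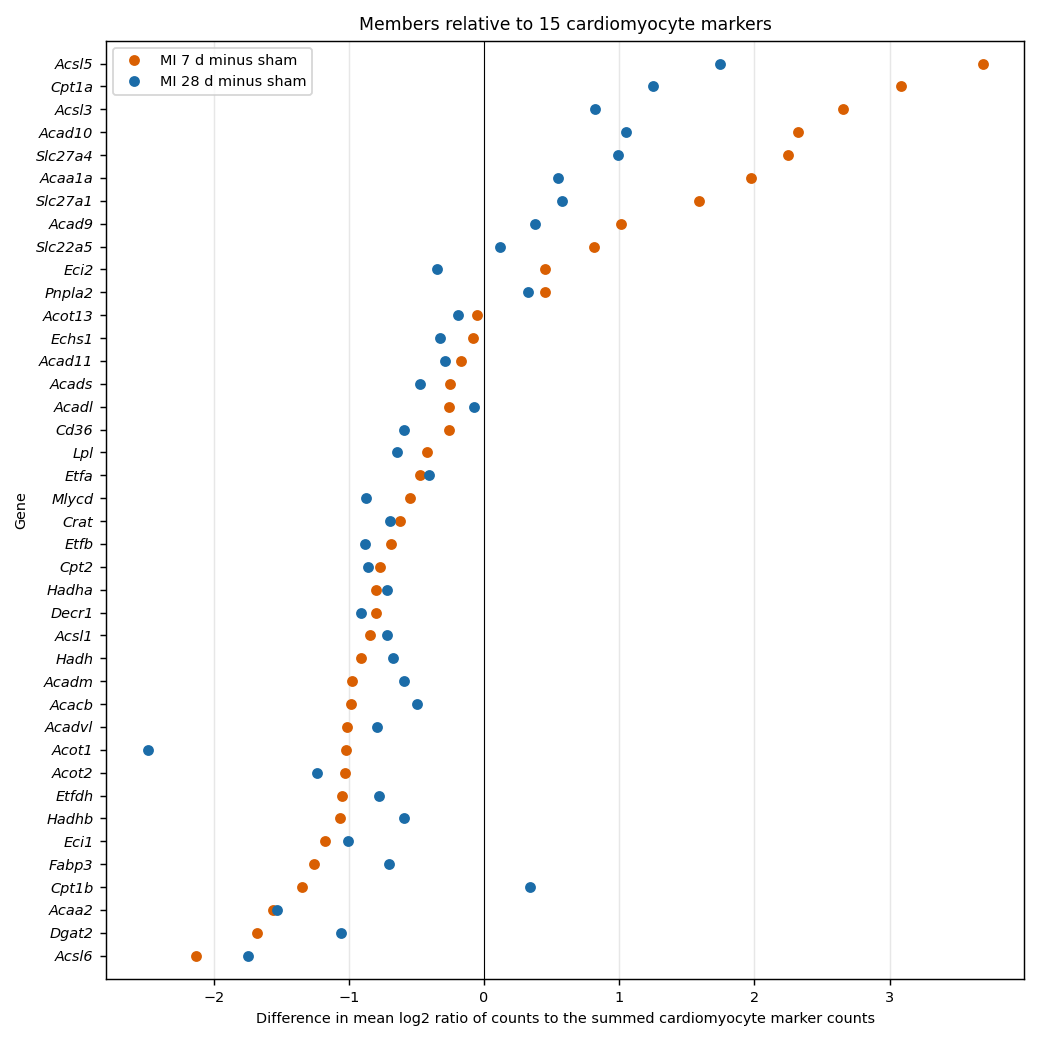
For each of the 40 genes the plot shows the difference between an infarct group and sham in the mean log2 ratio of its counts to the summed counts of 15 cardiomyocyte markers (orange 7 d, blue 28 d). Acsl5 and Cpt1a lie furthest to the right, Acsl6 furthest to the left at 7 d and Acot1 furthest to the left at 28 d.

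A further 97 genes of fatty acid metabolism were in the table, and 94 of them were tested. At 7 d 60 fell and 20 rose, with a median log2 fold change of -0.94, where 35.4% of all tested genes fell and 39.0% rose. At 28 d 51 fell and 16 rose, with a median of -0.51, where the shares of all tested genes were 25.6% and 29.5%. The counts by list that follow are to be read against the same shares. Of 14 further genes of mitochondrial oxidation 13 fell at 7 d, led by Echdc3 (-2.93, adjusted p = 3.09e-07), and only Hacd2, an elongation enzyme, rose (0.88, adjusted p = 0.0125, and 0.131 with sham summed to 1 library). Peroxisomal oxidation was more mixed, with 11 lower and 1 higher of 17. Phyh, the hydroxylase of branched chains, was at -3.01 (adjusted p = 4.68e-07), while Acox3 rose (0.64, adjusted p = 7.62e-05). Slc25a20, the carrier that exchanges acylcarnitine for carnitine, fell at 7 d (-2.79, adjusted p = 2.68e-06) and at 28 d (-1.72, adjusted p = 2.23e-04). Acss1, which activates acetate in the mitochondrion, was at -3.29 at 7 d (adjusted p = 8.82e-07). Cpt1c, the form known from neurons, rose (2.76, adjusted p = 2.01e-05) from a low level of 4.80, 4.14 and 3.97 CPM in sham to 31.9, 31.4 and 24.2 CPM at 7 d. Of the further thioesterases 5 of 6 fell, Acot3 most (-4.96, adjusted p = 1.38e-04, from 2.88, 3.49 and 3.38 CPM in sham), and Acot9 rose (0.73, adjusted p = 1.14e-04).

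Of 11 further genes of uptake and carriage that were tested, 4 fell and 5 rose at 7 d, near the shares over all genes. Vldlr, a receptor for triglyceride-rich lipoproteins, fell at 7 d (-2.49, adjusted p = 6.50e-07), and so did Gpihbp1, which anchors lipoprotein lipase to capillaries (-0.97, adjusted p = 6.27e-04). Angptl4, an inhibitor of lipoprotein lipase (2.39, adjusted p = 1.00e-03), and Slc27a3 (2.90, adjusted p = 1.32e-05) rose. Fabp5, a binding protein also made by macrophages, had 52.6, 50.1 and 53.6 CPM in the sham libraries, 132, 128 and 165 at 7 d and 35.8, 32.6 and 42.6 at 28 d, above sham in all 7 d libraries and below it in all 28 d libraries. Of 14 genes of triglyceride storage and lipolysis 9 fell and 3 rose at 7 d. Plin5, which couples droplets to mitochondria, had 157, 151 and 162 CPM in the sham libraries, 6.25, 4.55 and 5.10 at 7 d and 46.6, 26.7 and 16.4 at 28 d, a 29.4-fold fall at 7 d (log2 fold change -4.88, SE 0.35, adjusted p = 1.27e-06) and a 5.24-fold fall at 28 d (adjusted p = 2.24e-04). Plin2, the perilipin found in most cells, rose at 7 d (0.90, adjusted p = 6.90e-04) and did not pass at 28 d (-0.29, adjusted p = 0.164), with 103, 97.9 and 97.3 CPM in the sham libraries, 163, 159 and 237 at 7 d and 88.3, 66.6 and 89.5 at 28 d. Lpin1 and Lpin2, phosphatidate phosphatases, went opposite ways at 7 d (-2.70 and 1.26, adjusted p = 6.50e-07 and 3.42e-06). Of 13 genes of fatty acid synthesis and desaturation 7 rose and 3 fell at 7 d, against 39.0% and 35.4% of all tested genes. Elovl1, an elongase, rose (1.58, adjusted p = 6.95e-07). Fasn, fatty acid synthase, had 78.6, 106 and 647 CPM at 7 d and 47.3, 52.5 and 50.03 in sham, so every 7 d library was above every sham library. Its rise (2.47, adjusted p = 0.0172) was lost without 7 d replicate 3 (0.89, adjusted p = 0.121) or without sham replicates 1, 2 or 3 (adjusted p = 0.0552, 0.0505 and 0.0534), and with sham summed to 1 (0.177). Without all 3 libraries high in Adipoq, which include 7 d replicate 3, its log2 fold change was 0.88.

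**Figure D5:**
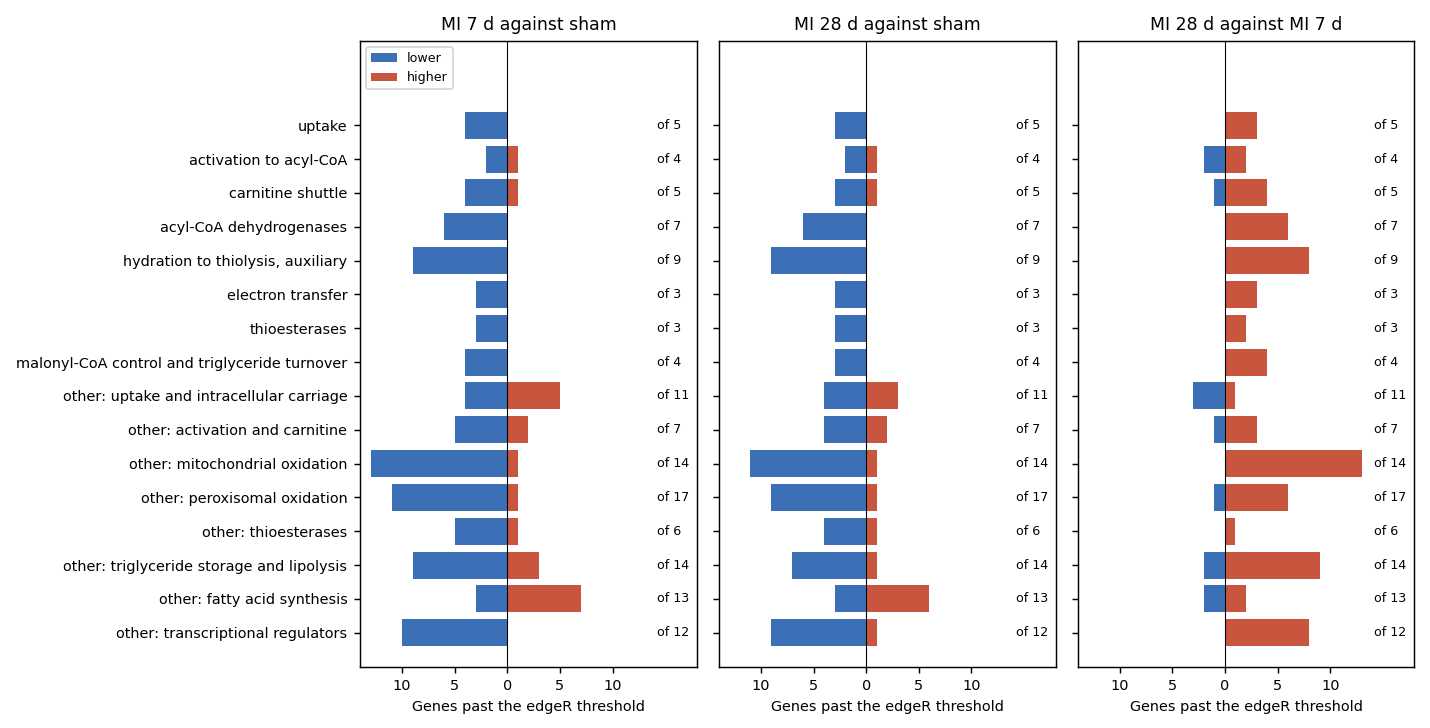
Bars give, for each role of the 40 genes (upper 8 rows) and each list of further genes (lower 8 rows, named other), the number of genes past the edgeR threshold that were lower (blue, to the left) or higher (red, to the right), in the 3 comparisons. The number tested stands at the right, and blue bars dominate in both comparisons with sham except for the further uptake genes at 7 d and fatty acid synthesis.

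Of 12 transcriptional regulators of the pathway 10 fell and none rose at 7 d (35.4% and 39.0% of all tested genes), and 9 fell and 1 rose at 28 d (25.6% and 29.5%). The one that rose was Nrip1, a corepressor of nuclear receptors (0.56, adjusted p = 0.00190), named after its value was seen. Ppara, the fatty acid receptor PPAR alpha, had 123, 119.7 and 120.3 CPM in the sham libraries, 11.1, 12.4 and 11.1 at 7 d and 92.05, 58.9 and 44.96 at 28 d, with no overlap between groups. It was 10.5-fold lower at 7 d (log2 fold change -3.39, SE 0.23, adjusted p = 1.04e-06) and 1.85-fold lower at 28 d (log2 fold change -0.89, SE 0.21, adjusted p = 0.00545, and 0.0731 with sham summed to 1 library), and it was higher at 28 d than at 7 d (log2 fold change 2.50, adjusted p = 2.29e-05). Ppargc1a, which encodes PGC-1 alpha, was at -2.99 and -0.95 (adjusted p = 3.78e-07 and 8.09e-04), and Rxrg, a partner receptor of PPARs, fell most, to -3.69 at 7 d (adjusted p = 1.62e-07).

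As the 40 genes largely moved together, their promoters were searched for the binding motifs of 2 of these receptor families. RefSeq promoter windows of GRCm38.p6, from 250 bases before to 50 after a gene's start, were at hand for 32 of the 40 genes and for 27025 genes in all. The core of the motif of oestrogen-related receptors, AAGGTCA on either strand, was found in 3 of the 32 (9.38%), Acadm, Acsl6 and Acacb, and in 5.38% of all windows. The longer form TCAAGGTCA, which contains the core, was found in 1 of the 32 (3.12%), Acsl6, and in 0.466% of all. The direct repeat of AGGTCA with 1 base between, known as DR1 and bound by PPAR with RXR, was in none of the 32 and in 0.0481% of all windows, and a looser DR1, with any base at the fourth place of each AGGTCA, in none and in 0.451%. The matches in Acadm and Acsl6 are printed on the strand of the gene, with the core in capitals as it reads on that strand, that is, as the reverse complement. The match in Acadm begins 249 bases before the start, at the edge of its window. The match in Acacb (chr5:114165551-114165567) is not printed. It lies inside the gene, whose span in GENCODE M21 begins at 114146535, so its window is not at that start. All these matches describe letters only, and no binding was measured here.
Acadm, chr3:153944876-153944893, minus strand: gTGACCTTcgggctccgg
Acsl6, chr11:54303625-54303651, plus strand: agtcttcccgTGACCTTgtgtggcctc
Acsl6, chr11:54303647-54303673, plus strand: gcctccaaccTGACCTTgagcattctt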

How the data were processed

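The KAPA RNA HyperPrep kit was used on total heart RNA, per the labels' protocols. Per the submitters' processing notes, the tools were Trim Galore, STAR and featureCounts on mm10, without versions. Not given in the sources used here are the annotation, the strand setting and how multiply mapped reads were handled. The counts deposited by the authors are whole reads per gene symbol, not normalized, and each column matched the title of 1 sample. The replicate numbers are those of the titles.

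Counts were analysed in R 4.3.3 with edgeR 4.0.16. The filter (filterByExpr, minimum count 10, minimum total 15) kept 14347 genes. Scaling was by TMM, and all 9 libraries entered 1 model of group means. The two-sided quasi-likelihood test was adjusted by Benjamini-Hochberg over all tested genes (threshold 0.05), and an SE was obtained by dividing the size of the log2 fold change by the root of F. The 40 genes and all other lists were chosen with earlier results of these data known. The rule named all 40, and library values were to be given for the extremes of each role and for genes outside the common course; the other genes of the pathway printed are part of those it names, picked after their values were seen. Positions and lengths come from GENCODE M21 (GRCm38), promoters from RefSeq. In ratios to cardiomyocyte markers, 0.5 was added to each gene's count.

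Simulated counts of the 14347 genes tested the script: for 7 d against sham 66.7% of 2-fold and 94% of 4-fold changes were called, and 8 of 13956 unchanged genes. For 28 d against sham the values were 66.7%, 90.9% and 10 of 13976, and for 28 d against 7 d 64%, 99% and 15 of 13954. Only 99 or 100 tested genes were changed at each fold, whereas in the data 35.4% of tested genes fell and 39.0% rose at 7 d. Performance of the script with so many changes was not tested. Separate values for the unequal spread seen between sham and infarct libraries are not at hand. Alternatives were the DESeq2 1.42.0 test, a filter switched off or made stricter (mean of 2 CPM, and 1 CPM in 3 libraries), scaling by library size alone or by DESeq2-type size factors, a fit of only the libraries compared, a replicate block and leaving out each library. After seeing the data, fits without the 3 libraries over 100 CPM of Adipoq (Adipoq-rich), with sham summed to 1, and other marker sums were added.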

Additional observations from a re-analysis of the deposited data

Results flagged for a closer look

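The test of 28 d against 7 d compares the 2 infarct groups directly, and the sham hearts cancel out of it. There is 1 sham group and not a sham group for each time. The course after infarction and time since surgery as such therefore cannot be told apart in this difference. The test picked out most of the 40 genes. It found 32 of them higher at 28 d and 3 lower (Acsl3, Acsl5 and Cpt1a). Fabp5, 1 of the other genes named, was called in opposite directions at the 2 times: it was above sham at 7 d (log2 fold change 1.44, adjusted p = 3.73e-06) and below it at 28 d (-0.49, adjusted p = 0.00784), a difference of -1.94 (SE 0.12, adjusted p = 3.48e-06). The fall at 28 d did not pass when scaled by library size alone (-0.24, adjusted p = 0.172) or with sham summed to 1 library (-0.53, adjusted p = 0.0906).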

How the results depend on the processing

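Over all alternatives and comparisons, 2112 fold changes of the 40 genes kept their direction and side of the threshold, 15 lost their call, 13 gained one and 17 changed sign. Scaled by library size alone, 4 of the 40 rose at 7 d, not 2. With sham summed to 1 library, 1 of the 40 rose at 28 d, and of the other pathway genes 12 rose at 7 d and 4 at 28 d (20 and 16 in the main analysis), and the falls of Slc27a1 and Acaa1a at 7 d and of Acsl1, Acaa1a, Dgat2, Fabp5 and Ppara at 28 d did not pass. Without the Adipoq-rich libraries, which leaves 1 library at 28 d, 16 other genes were lower at 28 d than at 7 d, not 9. Leaving out 1 library at a time gave 1 to 2 of the 40 higher at 28 d (1 without sham replicate 2) and 13 to 22 other genes higher at 7 d (13 without sham replicate 1). The median ratio to cardiomyocyte markers at 7 d was -0.89 without Myh6. Values of genes that did not pass changed sign as follows. Slc27a4 was 0.24 at 7 d (library size alone, where it passed, adjusted p = 0.0186) and at 28 d -0.0072 (DESeq2-type size factors), -0.0069 (DESeq2), -0.055 (without Adipoq-rich libraries) and -0.0078 (sham summed). Acsl3 was 0.11 at 28 d (library size alone). Acad10 at 7 d was 0.31 (library size alone) and 0.0040 (stricter filter), and without Adipoq-rich libraries -0.46 at 28 d and -0.35 for 28 d against 7 d. Leaving out 1 library at a time gave, across 0, Acad10 -0.12 to 0.083 at 7 d, -0.048 to 0.34 at 28 d and -0.022 to 0.37 for 28 d against 7 d, and for 28 d against 7 d Acaa1a -0.14 to 0.061 and Acot1 -0.24 to 0.13. In each case the cause was not tested. The labels do not say that replicate numbers pair the mice. Deviations of same-numbered libraries correlated at -0.0909 to 0.304, and those of differently numbered libraries at -0.582 to 0.454. These correlations cannot settle whether the numbers pair mice. With the replicate block, 35 of the 40 fell and 2 rose at 7 d, 32 and 2 at 28 d, and 32 were higher and 3 lower at 28 d than at 7 d. With 3 mice a group and infarct libraries that vary more than sham, changes of 2-fold and some of 4-fold may be missed, and those in Cpt1b and Acot3 rest on few counts.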

Other observations

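Ratios of counts between 2 of the genes in the same library do not depend on how libraries are scaled. Hadha and Hadhb, whose products join in 1 complex, stood at 1.16, 1.16 and 1.14 in sham, 1.41, 1.32 and 1.44 at 7 d and 1.09, 1.04 and 1.05 at 28 d (Hadha over Hadhb), so the 7 d ratios were above and the 28 d ratios below all sham ratios. Etfa over Etfb was 1.07, 1.05 and 1.05 in sham, 1.19, 1.40 and 1.102 at 7 d and 1.44, 1.53 and 1.42 at 28 d, the reads of Etfb being uncertain. Cpt1a over Cpt2, the outer and inner transferases of the shuttle, was 0.217, 0.210 and 0.206 in sham, 3.07, 3.27 and 2.84 at 7 d and 0.553, 1.0 and 1.36 at 28 d. Acsl5 over Acsl1 was 0.0236, 0.0261 and 0.0244 in sham, 0.770, 0.669 and 0.367 at 7 d and 0.0813, 0.151 and 0.206 at 28 d. In these 4 pairs no 2 groups overlapped, and each of their comparisons gave p = 0.1 in a two-sided exact permutation test, the smallest that 3 against 3 libraries allow (0.107 adjusted over 15 tests of 5 pairs). These pairs were chosen after their values were seen, and how often other gene pairs separate in this way is not at hand. The lack of overlap and the p = 0.1 of the permutation test are therefore description only.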
